A study of Rattus norvegicus with 12 samples.

Results

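The 10 genes described here encode Toll-like receptors and the proteins that work directly with them. They are the receptors *Tlr2*, *Tlr3*, *Tlr4*, *Tlr7* and *Tlr9*, the co-receptor *Cd14*, the adaptors *Myd88* and *Ticam1*, the kinase *Irak1* and the ligand *Hmgb1*. They were taken by gene symbol from a table of 37209 genes, and all 10 were listed and had enough counts to be tested. The table holds raw RNA-Seq read counts from punches of the central nucleus of the amygdala (CeA), with 1 library per rat, from 6 rats of the CIE group and 6 of the Control group. All 12 rats were male wild type Sprague Dawley rats aged 14 to 16 weeks. The CIE group had received chronic intermittent ethanol vapor, 14 h of vapor and 10 h of air each day for 5 to 7 weeks, and was sampled directly at the end of the last exposure, so the measurement belongs to intoxication and not to withdrawal. The Control group was kept in air throughout and was sampled at the matching time. A CeA punch holds neurons, glia, vessels and blood together, and in such samples fewer cells of a type and less RNA per cell cannot be told apart.

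Toll-like receptors recognize microbial products and molecules released by damaged cells. *Tlr2* and *Tlr4* sit at the cell surface, whereas *Tlr3*, *Tlr7* and *Tlr9* sense nucleic acids inside endosomes. Most of them signal through the adaptor MyD88 and the IRAK kinases to the transcription factor NF-kB, while TRIF, the product of *Ticam1*, serves *Tlr3* and one branch of *Tlr4* signaling. In the brain these receptors are best known from microglia, the resident immune cells, and they are also found on astrocytes, endothelial cells and some neurons.

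The CIE libraries held 61978486 to 78441691 counts and the Control libraries 39082548 to 95647601. Expression is given as CPM, counts scaled to a common library size, after TMM normalization, which assumes that most genes do not differ between libraries. The groups were compared with edgeR's quasi-likelihood F test over 20944 genes, with the false discovery rate (FDR) taken by Benjamini-Hochberg adjustment over all of them. A negative log2 fold change stands for lower expression in the CIE group. Rats were housed 3 to a cage, and which of them shared a cage is not given in the sources used here, so the 6 rats of a group may not be fully independent. The labels name no batch. Rats 1 to 6 are the CIE group and rats 7 to 12 the Control group, and handling in that order cannot be told apart from the exposure.

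In the edgeR test 1 of the 10 genes (*Tlr2*) reached a nominal p value below 0.05 and 0 passed 5% FDR. Over all genes tested, 8.31% had a nominal p value below 0.05 and 0.363% passed 5% FDR, so 1 gene in 10 is near the background. The point values were positive in 6 genes and negative in 4, with a median log2 fold change of 0.03 against 0.00096 over all genes tested. The median size of the change regardless of sign was 0.12 in these genes and 0.11 over all genes.

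**Figure D1:**
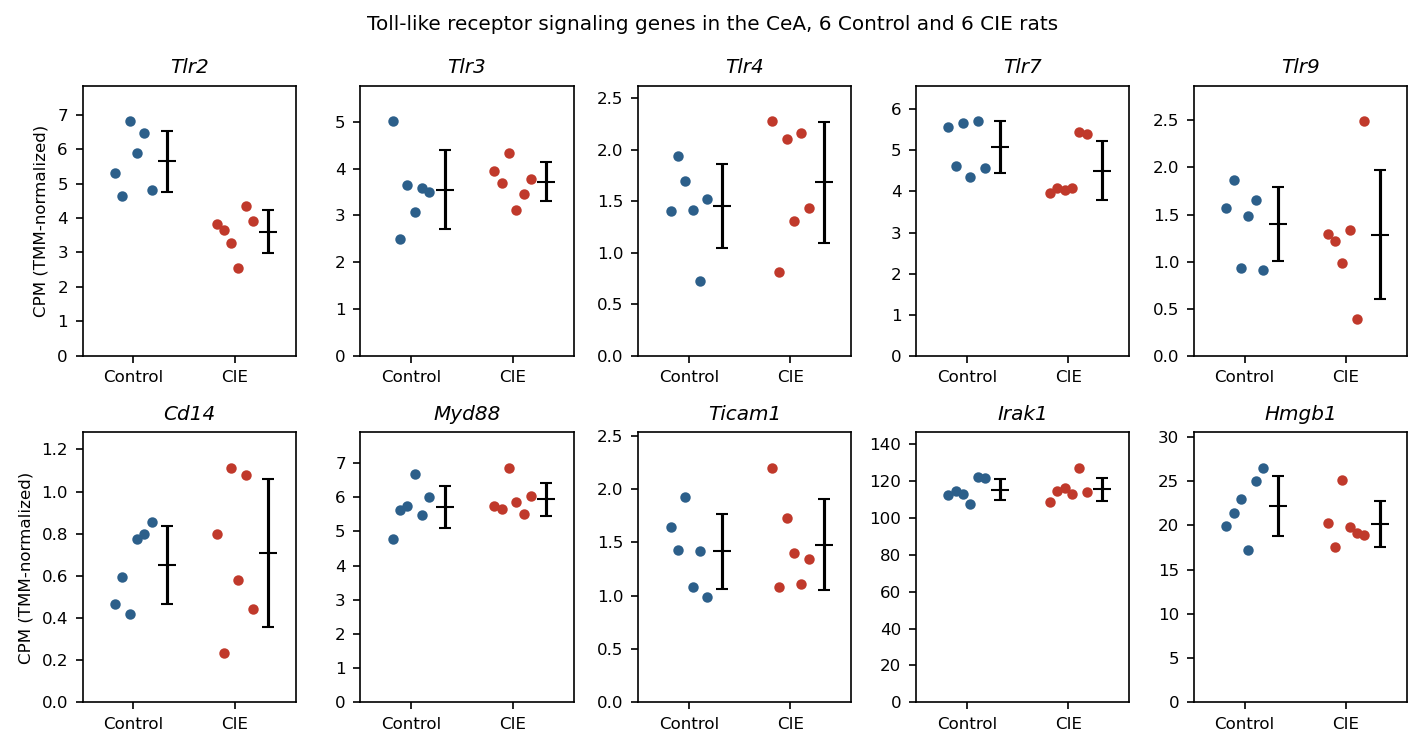
TMM-normalized CPM (vertical axes, each starting at 0) of the 10 genes in the 6 Control rats (blue) and the 6 CIE rats (red), with black bars for the mean and SD. The groups separate in *Tlr2* alone, where the highest CIE value is 4.36 CPM and the lowest Control value 4.64 CPM.

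*Tlr2* encodes the surface receptor that pairs with TLR1 or TLR6 to recognize lipoproteins, and it was the member with the largest difference. Its level was 2.56 CPM in the lowest, 3.74 CPM in the median and 4.36 CPM in the highest CIE rat. In the Control group the lowest rat was at 4.64 CPM, the median at 5.60 CPM and the highest at 6.81 CPM. Every CIE rat therefore lay below every Control rat. The mean was 3.60 ± 0.622 CPM (SD, n = 6) under CIE. It was 5.65 ± 0.884 CPM (SD, n = 6) under air. The two-sided exact permutation test of these means gave p = 0.00216, the smallest value that 6 rats against 6 allow and one that carries no adjustment for the genes examined. Over all genes tested, 0.893% had groups that did not overlap.

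In the edgeR test the *Tlr2* log2 fold change was -0.65 (SE 0.14), or 0.638 of the Control level with a 95% interval from 0.515 to 0.789. The nominal p value was 0.000477, at rank 115 of 20944, and the FDR was 0.0863. Among all genes tested, 4.31% were likewise lower in the CIE group at a nominal p value below 0.05. The call at 5% FDR depended on the method. DESeq2, which called 1.27% of the genes it tested, gave *Tlr2* an FDR of 0.00354, and limma-voom with sample quality weights, which called 1.12%, gave an FDR of 0.0458. When single rats were dropped, the log2 fold change lay between -0.71 and -0.57 and the edgeR FDR between 0.0799 and 0.240, the latter without Control rat 9.

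**Figure D2:**
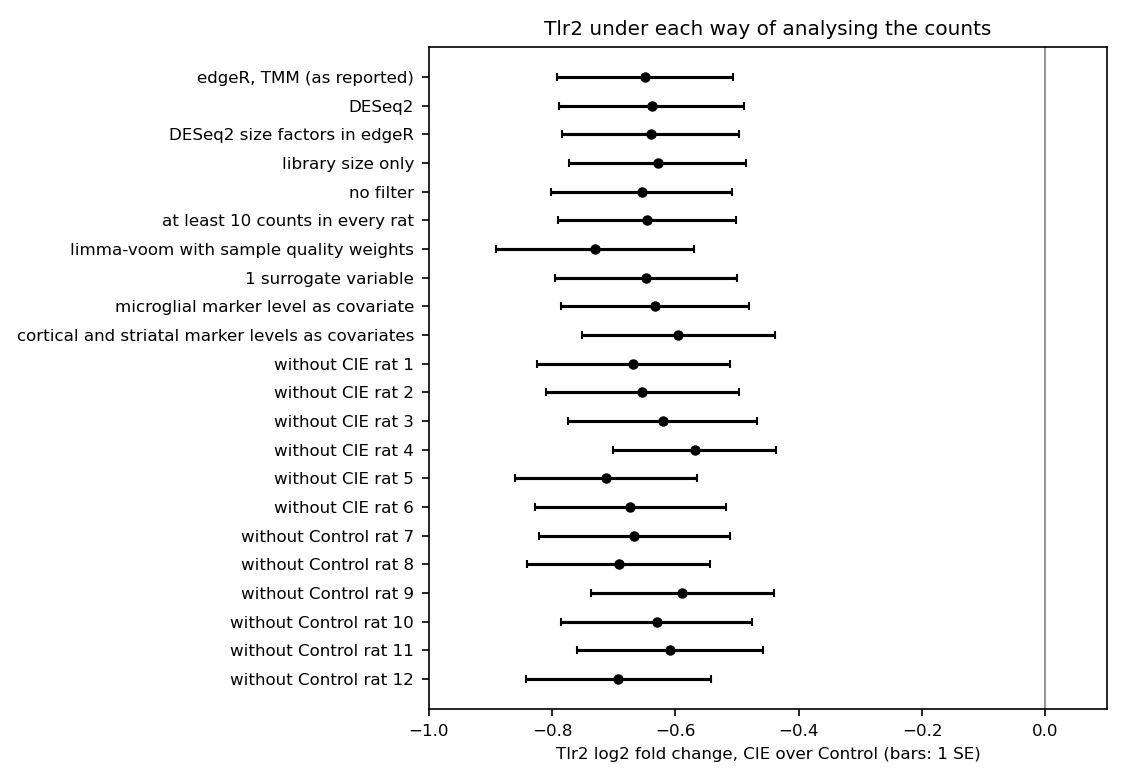
*Tlr2* log2 fold change, CIE over Control (horizontal axis), with bars of 1 SE, in the reported edgeR test and in 21 other ways of analysing the same counts. All values lie between -0.73 and -0.57, to the left of the zero line.

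A stretch before an annotated start of *Tlr2* is shown because it holds the only match to the NF-kB consensus site in the promoter windows of these genes. The windows, from RefSeq on GRCr8, run from 250 bases before to 50 bases after the annotated start and were found for 9 of the 10 genes. The NF-kB consensus was searched on both strands, and 5.02% of 33469 promoters of this length hold it. The *Tlr2* match reads the same on both strands and covers positions -205 to -196 from the start. It is given in capitals within its 30 bases, chr2:171504743-171504772 of GRCr8 on the minus strand.
Tlr2: aggcccttggGGGAATTCCCatacggagcc
The whole window lies inside the *Tlr2* gene span of the same annotation. The match is a description of sequence, and binding was not measured. The counts were made on another build, Rnor_6.0.

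Levels of cell type markers were read in the same libraries. Of 12 microglial markers, 11 had enough counts to be tested and 1, the fractalkine receptor *Cx3cr1*, had a nominal p value below 0.05, with a log2 fold change of -0.28 and an edgeR FDR of 0.169. The microglial markers summed to between 382 and 489 CPM in the CIE group and between 416 and 476 CPM in the Control group. The groups overlapped only through CIE rat 6, at 489 CPM. The next highest CIE rat was at 409 CPM, below every Control rat. The two-sided exact permutation test of the sums gave p = 0.110. Of the 11 markers tested, 3 had positive and 8 negative log2 fold changes. The purinergic receptor *P2ry12*, a defining microglial gene, was at means of 43.8 and 47.4 CPM, whereas *Gpr34* had 0 counts in every rat. With the microglial marker level as a covariate, the log2 fold change of *Tlr2* was -0.63 (FDR 0.145). This level is the mean log2 CPM of the 11 markers, each with equal weight. Among them is the scarce *Siglech*, with 10 to 51 counts per rat, and the fit was not repeated without it.

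Red blood cell markers were lower in the CIE group. Of 6 red blood cell markers, 5 had a nominal p value below 0.05, all of them lower and 3 of them also at 5% FDR, and the hemoglobin gene *Hbb* had a log2 fold change of -1.61 (edgeR FDR 0.0229). The red blood cell markers summed to between 89.7 and 285 CPM in the CIE group and between 362 and 662 CPM in the Control group. These sums did not overlap (two-sided exact permutation p = 0.002165). Control rat 9 had both the highest red blood cell sum and the highest *Tlr2* value of all 12 rats, whereas CIE rat 4 had the highest red blood cell sum of its group and the lowest *Tlr2* value of all. Of 7 endothelial markers tested, 4 were lower at a nominal p value below 0.05 and 0 passed 5% FDR in the edgeR test. Their overlapping sums were 188 to 254 CPM in the CIE group and 215 to 271 CPM in the Control group (two-sided exact permutation p = 0.0368). CIE rat 6 had the highest endothelial sum of its group. The next CIE rat, at 226 CPM, lay above Control rat 12 alone. Macrophage and leukocyte markers summed to 20.3 to 25.1 CPM against 22.2 to 34.5 CPM (two-sided exact permutation p = 0.1515). Of the 8 tested, 3 had positive and 5 negative log2 fold changes with a median of -0.24, and 1, *Cd163*, had a nominal p value below 0.05 (log2 fold change 0.77, edgeR FDR 0.558). All 8 myelinating oligodendrocyte markers had negative log2 fold changes, 7 of them at a nominal p value below 0.05 and 0 at 5% FDR in the edgeR test. Their sum was 5466 to 13310 CPM against 8395 to 15720 CPM (two-sided exact permutation p = 0.03247). CIE rat 6 again had the highest sum of its group. The next CIE rat, at 8800 CPM, lay above Control rat 12 alone. Cortical glutamatergic neuron markers summed to 12.8 to 426 CPM in the CIE group and 15.6 to 160 CPM in the Control group (two-sided exact permutation p = 0.145). All 6 log2 fold changes were positive (median 1.37), and 0 passed 5% FDR. Striatal neuron markers summed to 361 to 2784 CPM against 184 to 3136 CPM (two-sided exact permutation p = 0.7251). Central amygdala neuron markers summed to 585 to 2467 CPM against 645 to 2941 CPM (two-sided exact permutation p = 0.8593). The permutation p values of the marker sums carry no adjustment for the number of cell types examined. With the cortical and striatal levels as covariates, the *Tlr2* log2 fold change was -0.60 (FDR 0.183). The part that blood, vessels, myelin or neurons had in the *Tlr2* difference was not tested.

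**Figure D3:**
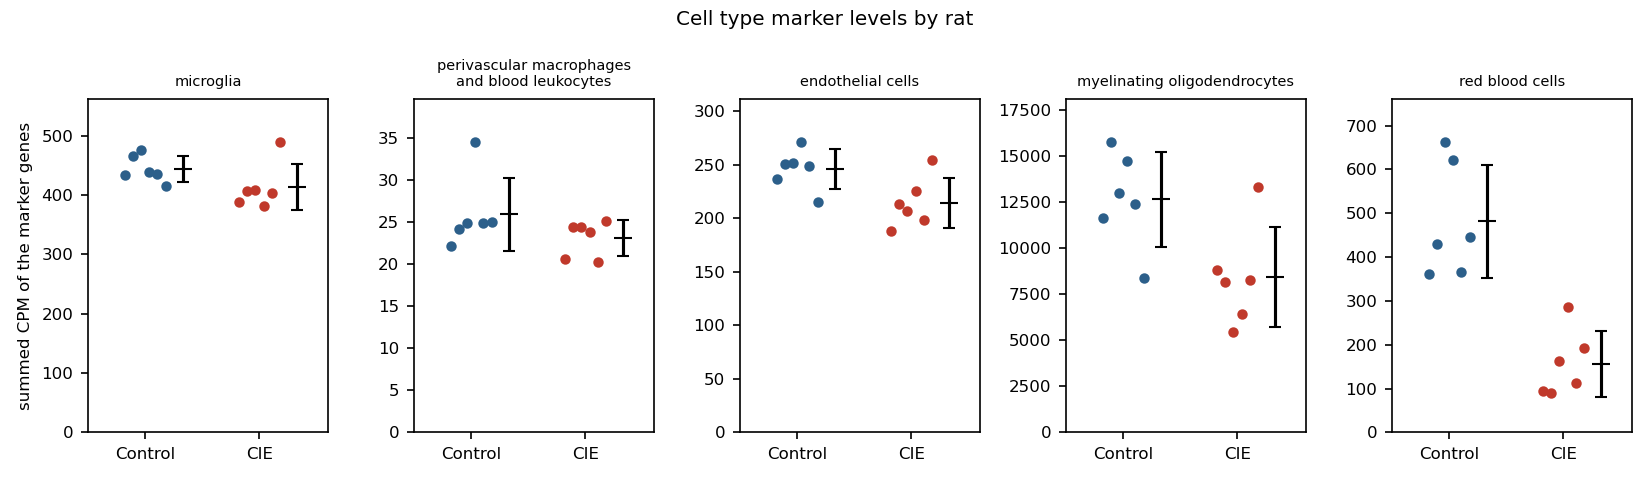
Summed CPM of marker genes (vertical axes, each starting at 0) of 5 cell types in the 6 Control rats (blue) and the 6 CIE rats (red), with black bars for the mean and SD. The red blood cell sums do not overlap between the groups, and the microglial sums do through CIE rat 6 alone.

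*Tlr4*, the receptor for bacterial lipopolysaccharide, was between 0.816 and 2.28 CPM in the CIE group (median 1.77 CPM) and between 0.724 and 1.93 CPM in the Control group (median 1.47 CPM). In both groups the lowest rat stood well below the others, and 3 CIE rats lay above every Control rat. The log2 fold change was 0.20 (SE 0.27, edgeR FDR 0.893), and its 95% interval runs from 0.772 to 1.72 of the Control level. *Cd14*, which hands lipopolysaccharide to the TLR4 complex, was the scarcest of the 10 genes in reads, with 14 to 75 counts per rat. It lay between 0.233 and 1.11 CPM in the CIE group (median 0.690 CPM) and between 0.417 and 0.856 CPM in the Control group (median 0.684 CPM). The CIE values spread on both sides of the Control range, with 1 rat below it and 2 above it. For *Cd14* the log2 fold change was 0.13 (SE 0.35, edgeR FDR 0.952), with an interval from 0.648 to 1.84 of the Control level.

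The endosomal receptors overlapped between the groups. *Tlr7*, which senses single-stranded RNA, had a lowest value of 3.97 CPM, a median of 4.09 CPM and a highest value of 5.46 CPM in the CIE group. The Control rats lay between 4.35 and 5.71 CPM with a median of 5.10 CPM. Of the CIE rats, 4 stood together below every Control rat and the other two, rats 5 and 6, lay within the Control range. For *Tlr7* the log2 fold change was -0.17 (SE 0.13, edgeR FDR 0.785). *Tlr3*, which senses double-stranded RNA, was at 3.11 to 4.33 CPM in the CIE group (median 3.73 CPM) and at 2.50 to 5.01 CPM in the Control group (median 3.54 CPM), a log2 fold change of 0.07 (SE 0.15, edgeR FDR 0.943). The Control group held both the lowest and the highest *Tlr3* value.

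*Tlr9*, the receptor for unmethylated CpG DNA, had the widest relative spread of the receptors in the CIE group. It was at 0.389 CPM in the lowest and 2.49 CPM in the highest CIE rat (median 1.25 CPM), and at 0.909 to 1.86 CPM in the Control group (median 1.53 CPM). The CIE extremes, rats 5 and 6, lay on opposite sides of all Control rats. The log2 fold change was -0.12 (SE 0.34, edgeR FDR 0.954), with an interval from 0.555 to 1.53 of the Control level. This interval holds both lower and higher levels under CIE, so the direction of a *Tlr9* change was not resolved.

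The adaptors and the kinase overlapped between the groups. *Myd88*, the adaptor of all 5 receptors here except *Tlr3*, was at 5.50 to 6.86 CPM in the CIE group (median 5.79 CPM) and at 4.79 to 6.67 CPM in the Control group (median 5.69 CPM). The 2 ranges largely coincided, and the log2 fold change was 0.06 (SE 0.10, edgeR FDR 0.926). *Ticam1* was at 1.08 to 2.20 CPM under CIE (median 1.37 CPM) and at 0.990 to 1.93 CPM under air (median 1.42 CPM). Its groups overlapped and its log2 fold change was 0.06 (SE 0.22, edgeR FDR 0.964). *Irak1*, the kinase recruited by MyD88, had 4734 to 11011 counts per rat. It was at 109 to 127 CPM in the CIE group (median 114 CPM) and at 107 to 122 CPM in the Control group (median 114 CPM), and the log2 fold change was 0.01 (SE 0.06, edgeR FDR 0.988). For *Irak1* the 95% interval runs from 0.924 to 1.09 of the Control level and for *Myd88* from 0.897 to 1.20, whereas *Ticam1*, with fewer reads, has one from 0.750 to 1.45.

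*Hmgb1* encodes a chromatin protein that acts as a danger signal on TLR4 and TLR2 once it leaves the cell, and this release is not visible in mRNA. It was at 17.6 to 25.1 CPM in the CIE group (median 19.5 CPM) and at 17.2 to 26.5 CPM in the Control group (median 22.2 CPM). Except for CIE rat 3 at 25.1 CPM, the CIE rats lay at or below 20.3 CPM. The log2 fold change was -0.14 (SE 0.11, edgeR FDR 0.801), with an interval from 0.770 to 1.07. The rat genome holds many near-identical copies of *Hmgb1*. The reference table used for names lists 23 of them and the count table lists 3, of which 2 had 0 counts in every rat and the other had at most 26. How reads shared among copies were counted is not given in the sources used here, so the *Hmgb1* values are uncertain.

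The spread between rats differed widely among these genes. For *Irak1* the SD was 5.39% of the mean under CIE and 4.97% under air, against 53.4% and 28.0% for *Tlr9* and 49.8% and 28.5% for *Cd14*. Counting error alone, taken as Poisson, would give 1.13%, 10.3% and 14.8% for these 3 genes. The SD of *Tlr2* was 17.3% and 15.6%, with 5.66% from counting. The CIE group had its widest relative spread in *Tlr9*, *Cd14*, *Tlr4* and *Ticam1*, genes with at most 202 counts in any CIE rat. Levels are not compared between genes, because the counts were not divided by gene length.

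**Figure D4:**
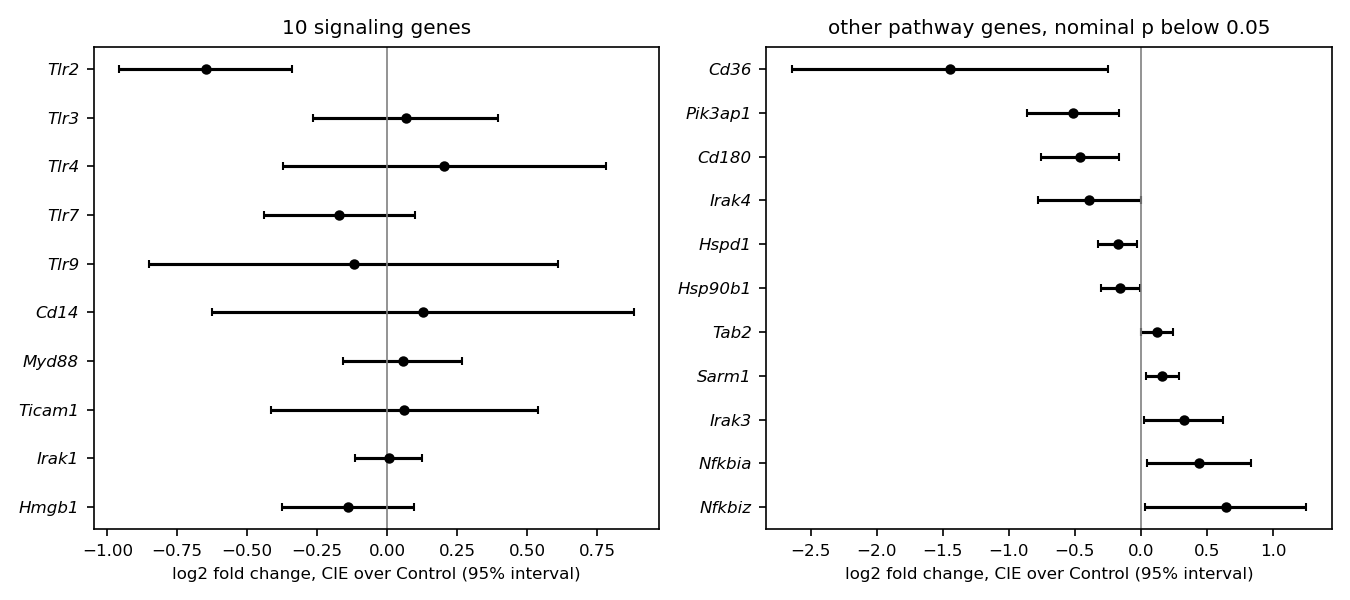
Log2 fold changes, CIE over Control (horizontal axes), with 95% intervals from the edgeR test, for the 10 signaling genes (left) and for the 11 other pathway genes with a nominal p value below 0.05 (right). On the left the interval of *Tlr2* alone lies wholly on one side of zero.

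The other genes of the pathway were read from a list of 70 receptors, accessory proteins, adaptors, kinases and ubiquitin ligases, transcription factors, inhibitors, ligands and induced targets. In all, 51 had enough counts to be tested. A nominal p value below 0.05 was found for 11 of them (21.6%, against 8.31% of all genes), 5 higher and 6 lower in the CIE group, and 0 passed 5% FDR in the edgeR test. The list was chosen with earlier results of these data known, so its share beside that of all genes is a description and not a test. The list's median log2 fold change was 0.03. Without *Cd36*, which entered the test through the Control group, 10 of 50 genes (20%) had a nominal p value below 0.05. The number of 11 varied when single rats were left out. It was 7 without CIE rat 1, 6 without CIE rat 2 and 5 without CIE rat 4. It was 6 without Control rat 8, 4 without Control rat 9 and 6 without Control rat 11.

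Among the receptors, 1 of 3 tested had a nominal p value below 0.05. This was *Cd180*, a relative of TLR4 that regulates its signaling. It averaged 3.50 ± 0.678 CPM under CIE and 4.82 ± 0.592 CPM under air, and 5 of 6 CIE rats lay below every Control rat. Its log2 fold change was -0.46 (SE 0.14, edgeR FDR 0.278). *Tlr6*, the partner of TLR2, had a log2 fold change of -0.12 (FDR 0.947), and *Tlr13* one of 0.44 (FDR 0.629) with 5 CIE rats above every Control rat and 1 below. The other partner of TLR2, *Tlr1*, had 5 to 21 counts per rat and was not tested.

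Of 6 accessory proteins tested, 2 had a nominal p value below 0.05 and both were lower. *Cd36*, a scavenger receptor that assists TLR2, had a log2 fold change of -1.45 (SE 0.56, edgeR FDR 0.484) at 1 to 26 counts in the CIE rats and 12 to 58 in the Control rats. It passed the filter on low counts through the Control group, where it is high, so its value is a description, and 1 of 5 accessory proteins remains without it. *Hsp90b1*, the chaperone that folds most Toll-like receptors, had a log2 fold change of -0.16 (FDR 0.575). Its nominal p value was below 0.05 in 9 of the 21 other analyses. The TLR4 partner *Ly96* did not pass, with a log2 fold change of 0.13 (FDR 0.870), nor did *Unc93b1*, which carries the endosomal receptors to their compartment (-0.01, FDR 0.995).

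Of the 4 adaptors, *Pik3ap1* and *Sarm1* had a nominal p value below 0.05, in opposite directions. *Pik3ap1*, which links Toll-like receptors to phosphoinositide 3-kinase, averaged 5.07 ± 1.61 CPM under CIE and 7.25 ± 0.546 CPM under air. This gave a log2 fold change of -0.51 (SE 0.16, edgeR FDR 0.333). Of the CIE rats, 5 lay below every Control rat and the remaining one, rat 6 at 8.30 CPM, above all of them. Without CIE rat 6 the log2 fold change of *Pik3ap1* was -0.71 with an FDR of 0.00881. In that fit 154 genes passed 5% FDR, against 76 in the reported test. Over the 21 other analyses the log2 fold change of *Pik3ap1* lay between -0.71 and -0.45. *Sarm1*, an adaptor best known in neurons for driving axon loss, was higher with a log2 fold change of 0.16 (FDR 0.427), and 4 CIE rats lay above every Control rat.

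Of 15 kinases and ubiquitin ligases, 2 had a nominal p value below 0.05. *Irak4*, which activates IRAK1, had a log2 fold change of -0.39 (SE 0.18, edgeR FDR 0.602) and *Tab2*, which brings the kinase TAK1 to its ubiquitin platform, one of 0.12 (FDR 0.594). None of the 8 transcription factors did. The smallest p value among these belonged to *Irf7*, with a log2 fold change of -0.17 (FDR 0.921), and the NF-kB subunits *Nfkb1* and *Rela* had log2 fold changes of 0.02 (FDR 0.957) and 0.002 (FDR 0.998).

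Of 7 inhibitors 2, and of 4 induced targets tested 1, had a nominal p value below 0.05, and these 3 genes were higher in the CIE group. Among the 21 other analyses that p value was reached in 13 for *Nfkbia*, 13 for *Irak3* and 11 for *Nfkbiz*. *Nfkbia*, the inhibitor of NF-kB that NF-kB itself induces, averaged 17.4 ± 4.75 CPM under CIE and 12.8 ± 2.89 CPM under air. Its log2 fold change was 0.44 (SE 0.18, edgeR FDR 0.542). *Irak3*, a brake on IRAK signaling, had a log2 fold change of 0.32 (FDR 0.566). *Nfkbiz*, another NF-kB-induced regulator, averaged 2.42 ± 0.704 CPM under CIE and 1.54 ± 0.605 CPM under air, with a log2 fold change of 0.64 (FDR 0.575). In each of the 3 genes the groups overlapped, with 3 or 4 CIE rats above every Control rat. Among the ligands, *Hspd1* had a log2 fold change of -0.18 (FDR 0.484). Of 13 induced targets, 9 were too scarce to be tested, among them *Il1b*, *Il6*, *Ccl2* and *Nos2*, and *Tnf* was tested at 1 to 19 counts per rat (log2 fold change 0.03, FDR 0.994).

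Whether the members varied with the microglial content of the punch was examined over all 12 rats with the group means removed, on log2 CPM, for 10 genes. With *Tlr2* the mean level of 11 microglial markers gave Pearson's r = 0.15 (permutation p = 0.642, adjusted 0.898) and Spearman's rho = 0.06 (permutation p = 0.870, adjusted 0.966), and r was 0.32 without CIE rats 5 and 6, the pair farthest from the median marker level. Within the groups r was 0.11 in the CIE group (exact permutation p = 0.931) and 0.23 in the Control group (exact permutation p = 0.672). After adjustment the smallest p of the 10 Pearson coefficients was 0.0842, reached by *Tlr9* (r = 0.73, rho = 0.52) and *Cd14* (r = -0.67, rho = -0.85). For *Tlr9* the unadjusted permutation p was 0.00935 for r and 0.0824 for rho (adjusted 0.343), and r was 0.32 without the same pair of rats, so the relation rests on them. For *Cd14* the permutation p was 0.0168 for r and 0.00082 for rho (adjusted 0.0082), r was -0.66 without the pair, -0.63 within the CIE rats (exact permutation p = 0.228) and -0.81 within the Control rats (exact permutation p = 0.025). This call for *Cd14* was lost with summed linear CPM of the markers (r = -0.39, rho = -0.28, adjusted permutation p = 0.695 and 0.902) and without the scarce marker *Siglech* (r = -0.46, rho = -0.57, adjusted permutation p = 0.682 and 0.555).

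The genes whose log2 CPM followed the members most closely over the 12 rats were taken for the 3 members with the smallest p value. For *Tlr2* these were *Gsx1* (r = 0.92, a homeobox gene at 0.178 CPM), the growth factor gene *Igf2* (r = 0.92) and RGD1559769 (r = 0.89). *Igf2* had a log2 fold change of -1.02 (edgeR FDR 0.0207). *Gsx1* had one of -1.44 (FDR 0.445) and RGD1559769 one of -0.28 (FDR 0.554). The group means were not removed, so the likeness of all 3 genes to *Tlr2* includes the difference between the groups. For *Tlr7* they were *Lrriq3* (r = 0.85), the microglial receptor gene *P2ry12* (r = 0.85) and *Ypel1* (r = 0.85), and for *Hmgb1* they were *Gltpd2* (r = 0.94), LOC100912538 (r = 0.90) and *Tsr2* (r = 0.90). These coefficients are the highest among all genes tested and carry no test.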

How the data were processed

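Poly-A enriched RNA from CeA punches of 12 rats was sequenced as paired reads. The deposited values are raw counts per gene, which the authors obtained with HTSeq after alignment by BWA to the Rnor_6.0 genome. The annotation and the strand and overlap settings are not given in the sources used here. Groups come from the treatment label. The titles of all 12 samples end in CIE, including those of the 6 rats labeled as air controls. Rats within a group differed by more than sampling noise (median chi-square per gene 3.70 to 15.9 in pairs), and no pairing of rats between groups is stated. For scarce genes precision is limited by counting error at this depth as well as by the spread between rats. The 95% intervals come from the edgeR fit and include variation between rats, whereas the Poisson errors and the limit for a count of 0 cover counting error only.

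Counts were analysed with edgeR 4.0.16 (filterByExpr, TMM, quasi-likelihood F test, no covariates) in R 4.3.3, tested on simulated data. The SE was derived from the F statistic. Alternatives used DESeq2 1.42.0 (the authors used version 1.26), limma 3.58.1 and sva 3.50.0. Exact permutation tests used scipy 1.17.1, and those with 100000 resamples used numpy 2.4.6. The members and lists were chosen with earlier results of these data known. Named genes are the 10 members, other pathway genes with a nominal p value below 0.05 or the smallest p of their role, and the 3 genes most like each of 3 members; other pathway and marker genes named were chosen after their values were seen.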

Additional observations from a re-analysis of the deposited data

Results flagged for a closer look

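In 20 groups of 6 values, 2 per gene, the extreme rat was compared with the rest of its group by Dixon's ratio. 1 group stood out, where chance gives about 1 in 20. The *Hmgb1* level of CIE rat 3 was 25.1 CPM, the next highest CIE rat was at 20.3 CPM and the lowest at 17.6 CPM. Without this rat the log2 fold change of *Hmgb1* was -0.21 with an edgeR FDR of 0.402.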

How the results depend on the processing

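Of 21 alternative fits, all kept the *Tlr2* difference below zero and at a nominal p value below 0.05 (log2 fold change -0.73 to -0.57). The number of the 10 genes at 5% FDR was 1 (*Tlr2*) with DESeq2 and with limma-voom and 0 otherwise, and the number at a nominal p value was 2 with limma-voom, where *Hmgb1* had a limma-voom FDR of 0.279. With 1 rat left out these numbers were 0 and 1 throughout. Over all genes, 265 passed 5% FDR with DESeq2 and 234 with limma-voom, against 76. It was 41, 47, 43 and 154 without CIE rat 1, 2, 4 and 6, and 49, 34 and 49 without Control rat 8, 9 and 11. At a nominal p value limma-voom gave 3596 genes, against 1740, and 1347 to 2811 were found with 1 rat left out, the highest without CIE rat 3. With library size only, 39.7% of the nominal genes were lower in the CIE group, against 51.9%. Of the other pathway genes, 1 (*Pik3ap1*) passed 5% FDR with limma-voom and 0 to 1 with 1 rat left out. The number at a nominal p value was 7 with the microglial level and 5 with the cortical and striatal levels as covariates, and 4 to 14 with 1 rat left out. *Cd180*, *Pik3ap1* and *Sarm1* passed it in all 21 fits. The causes were not tested.

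Signs turned in genes near zero. The log2 fold change of *Cd14* was -0.133 with the microglial covariate, -0.0433 without CIE rat 3 and -0.0335 without CIE rat 5. That of *Ticam1* was -0.0185 with limma-voom, -0.0866 without CIE rat 1 and -0.0245 without Control rat 12. That of *Irak1* was -0.000532 without a filter, -0.0163 with limma-voom, -0.0148 with the microglial covariate, -0.0249 without CIE rat 5, and -0.00227, -0.000801 and -0.00904 without Control rats 7, 9 and 10. *Tlr3* was at -0.0114 without Control rat 8 and *Tlr9* at 0.0683 without CIE rat 5. On summed linear CPM the r of *Myd88* with the microglial level was 0.0927, against -0.072 on log2 CPM. On log2 CPM without *Siglech*, a marker under 1 CPM left out after the values were seen, the r of *Myd88* was 0.139. In the same setting the r of *Tlr4* was 0.00549, against -0.115 with *Siglech*. The r of *Cd14* kept its sign there, at -0.456 against -0.672. No paired analysis was possible because the labels give the groups no shared replicate numbers.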

Other observations

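Several inflammatory genes lay below the filter on low counts and enter no count above. They were named after their values were seen. *Il6* had 0 to 18 counts in the CIE rats and 0 to 6 in the Control rats, or 0.158 ± 0.0899 CPM (SD, n = 6) against 0.0374 ± 0.0336 CPM (SD, n = 6), with 5 of 6 CIE rats above every Control rat. In the edgeR test without a filter its log2 fold change was 1.95 (FDR 0.586). *Il1b*, the precursor of interleukin 1 beta, had 1 to 9 counts in the CIE rats and 6 to 24 in the Control rats, with 4 CIE rats below every Control rat and a log2 fold change of -1.31 (FDR 0.588) in the same test. The receptors *Tlr5*, *Tlr8*, *Tlr10*, *Tlr11* and *Tlr12* had at most 37 counts in any rat. *Ager*, another receptor for HMGB1, and the chemokine gene *Cxcl10* had 0 counts in every rat. By counting error alone, a count of 0 allows up to 3 counts, or 0.0775 CPM in the shallowest library. The microglial gene *Gpr34* also had 0 counts in every rat. The annotation is not given in the sources used here, so whether rows of 0 stand for absence is uncertain.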
